A study of Mus musculus with 6 samples.

Results

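The genes described here are 9 receptors and ligands of the GDNF and neurotrophin families, namely Ret, Gfra1, Gfra2, Gfra3, Ntrk2, Ntrk3, Ngfr, Bdnf and Gdnf, taken by their symbols from a table of 23079 mouse genes. All 9 were in the table, 8 had enough counts to be tested and 1, Gfra3, had a count of 0 in every library. The table holds RNA sequencing counts for 3 libraries from midbrain dopaminergic neurons given a short hairpin RNA against Satb1, called knockdown below, and 3 libraries given a scrambled hairpin, called control. In both groups the hairpin was carried with EGFP by adeno-associated virus of serotype 1 (AAV1) into C57BL/6 mice of the Dat bacTRAP line, aged 4 months, in which the dopamine transporter gene drives a tagged ribosomal protein. Substantia nigra pars compacta and ventral tegmental area were dissected from 1 mm slices. Sample titles speak of siRNA and the treatment text of hairpins. The labels give total RNA and do not state a ribosome capture. They name 3 mice but do not tie libraries to them, so the spread behind each p-value is that between libraries, which may be technical.

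RET is a receptor tyrosine kinase that does not bind its ligands alone: GDNF is held by the lipid-anchored co-receptor encoded by Gfra1, neurturin by that of Gfra2 and artemin by that of Gfra3, and each complex then engages RET. The neurotrophins act through TRK kinases, BDNF on TrkB (Ntrk2) and neurotrophin-3 on TrkC (Ntrk3), while p75 (Ngfr) binds all neurotrophins and their precursors. Both families support midbrain dopaminergic neurons, which express RET and TrkB, and GDNF reaches them largely from their striatal targets, whereas BDNF is also made in part of these neurons.

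Bdnf has several transcription starts, and counts per gene do not tell which of them was used. The 250 bases before each start were read from RefSeq sequences of GRCm38.p6 for 5 of the genes (Gfra1, Ntrk2, Ngfr, Bdnf and Gdnf). These had 12 starts in all, 7 of them of Bdnf. Ret, Gfra2 and Ntrk3 had no entry there, and no window was read for Gfra3. Sequences of Bdnf and Ntrk2 are shown because these 2 genes changed in opposite directions, and the Bdnf start numbered 3 along the chromosome because it alone of the 7 held the letters TGACG on either strand, the core of the cAMP response element bound by CREB. Capitals mark that match, read on the opposite strand.
Bdnf start 3 (chr2:109692186-109692435, plus strand): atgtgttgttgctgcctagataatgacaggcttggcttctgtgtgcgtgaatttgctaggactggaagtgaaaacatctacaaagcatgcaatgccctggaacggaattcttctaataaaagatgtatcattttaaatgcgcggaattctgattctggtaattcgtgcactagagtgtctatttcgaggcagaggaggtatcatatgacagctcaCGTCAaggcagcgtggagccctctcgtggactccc
Bdnf start 1 (chr2:109674450-109674699, plus strand): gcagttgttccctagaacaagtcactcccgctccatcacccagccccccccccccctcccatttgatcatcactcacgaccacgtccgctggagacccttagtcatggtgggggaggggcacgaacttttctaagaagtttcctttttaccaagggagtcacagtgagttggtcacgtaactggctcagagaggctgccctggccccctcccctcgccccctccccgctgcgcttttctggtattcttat
Ntrk2 (chr13:58806319-58806568, plus strand): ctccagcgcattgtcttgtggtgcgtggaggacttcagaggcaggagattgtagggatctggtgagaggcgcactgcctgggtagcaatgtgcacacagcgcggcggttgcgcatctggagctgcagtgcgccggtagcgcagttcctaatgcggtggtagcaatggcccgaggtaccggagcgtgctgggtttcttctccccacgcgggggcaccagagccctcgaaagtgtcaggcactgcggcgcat
The match begins 35 bases before Bdnf start 3, and none of the 3 windows overlaps an annotated exon of its own gene. TGACG was in 17.8% of 32851 promoter windows of the same length, and 1 of the 2 Gdnf windows held it too. The full element TGACGTCA, which contains it, was in 1.55% of them and in 0 of the 12 windows here. The SATB1 protein, which folds chromatin, prefers stretches rich in A and T. A and T made up 54.4% of the window of Bdnf start 3, 42% of that of start 1 and 37.2% of the Ntrk2 window, against a median of 47.6% over all windows. These are descriptions of the letters and were not related to binding.

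The libraries held between 147486754 and 164554674 counts in the knockdown and between 160792736 and 170351145 in the control, and levels are given as CPM, counts relative to library size, scaled by the trimmed mean of M-values (TMM), in which a single count weighs from 0.00557 to 0.00672. Satb1 was at 82.9, 166 and 61.2 CPM in knockdown libraries 1 to 3, against 351, 349.6 and 319.8 CPM in control libraries 1 to 3, so that knockdown library 2 kept the most Satb1. Satb1 shares exon bases with 2 predicted genes, Gm6934 and Gm36931. Markers are counted below as higher or lower only where they passed the test named in the next paragraph, whatever the sign of the others. Over all tested genes that test called 8.48% higher and 12.6% lower. Dopamine neuron markers were abundant in every library, and 6 of the 10 were lower. Their summed level ran from 10670 to 13560 CPM in the knockdown and from 16980 to 19590 CPM in the control. Of markers of other cells, 8 of 10 for oligodendrocytes were higher, with sums between 636 and 719 CPM in the knockdown and between 403 and 472 CPM in the control, and 3 of 7 for their precursors, with sums between 40.7 and 58.7 CPM in the knockdown and between 28.1 and 30.8 CPM in the control. Of 10 astrocyte markers 2 were higher and 1, Slc1a2, was lower, with sums between 250.5 and 254 CPM in the knockdown and between 268 and 314 CPM in the control, although the median log2 fold change of the list was 0.575. Of 10 microglia markers 1 was higher and 2 were lower, with sums between 44.7 and 52.6 CPM in the knockdown and between 52.5 and 55.9 CPM in the control, and a median of 1.04. Endothelial sums, with 1 of 7 markers higher, ran from 4.16 to 6.61 CPM in the knockdown and from 3.98 to 5.05 CPM in the control. Mural and meningeal sums ran from 2.96 to 10.5 CPM in the knockdown and from 2.61 to 6.63 CPM in the control. Sums for other neurons, with 1 of 9 markers higher, ran from 264 to 397 CPM in the knockdown and from 253 to 327 CPM in the control. No marker was at 0 in all libraries.

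Of the 8 tested genes, Ret and Ntrk2 fell and Bdnf rose in the knockdown (quasi-likelihood test of edgeR, threshold 0.05 on the adjusted p). Over all 16766 genes tested the same rule called 21.1%, with 8.48% higher and 12.6% lower, so that 3 of 8 is a share of 37.5% over very few genes. Under the alternatives the share of all genes called, with its higher and lower parts, was 20.7% (8.9% and 11.8%) with relative log expression (RLE) scaling, 22.3% (16.5% and 5.8%) with total counts, 25.9% (11.7% and 14.2%) with DESeq2, 17.6% (7.03% and 10.6%) without a filter, 27.3% (13.2% and 14.2%) among genes averaging 1 CPM or more, and 28.1% (11.5% and 16.6%) with the replicate block. Without control library 1, 2 or 3 it was 15% (6.05% and 8.91%), 13% (5.3% and 7.7%) and 14.7% (5.83% and 8.82%), and without knockdown library 1, 2 or 3 it was 11.3% (4.71% and 6.64%), 20% (7.94% and 12%) and 16% (6.36% and 9.65%). Knockdown and control libraries did not overlap for 5 of the 8 (Ret, Gfra1, Ntrk2, Ngfr and Bdnf), where 38.7% of all tested genes did not overlap. The median log2 fold change of the 8 was -0.07, against 0.01 over all tested genes. In knockdown library 2, the one with the most Satb1, each of the called genes lay nearest to the control: Ret and Ntrk2 were highest and Bdnf was lowest there among the knockdown libraries. Summed dopamine neuron markers were also nearest to the control there, at 13560 CPM beside 10670 and 12500 CPM in knockdown libraries 1 and 3. Oligodendrocyte sums were too, at 636 CPM beside 719 and 676 CPM, whereas microglia sums were nearest in knockdown library 3 (52.6 CPM). The part of Satb1 or of cell markers in this order was not tested.

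**Figure D1:**
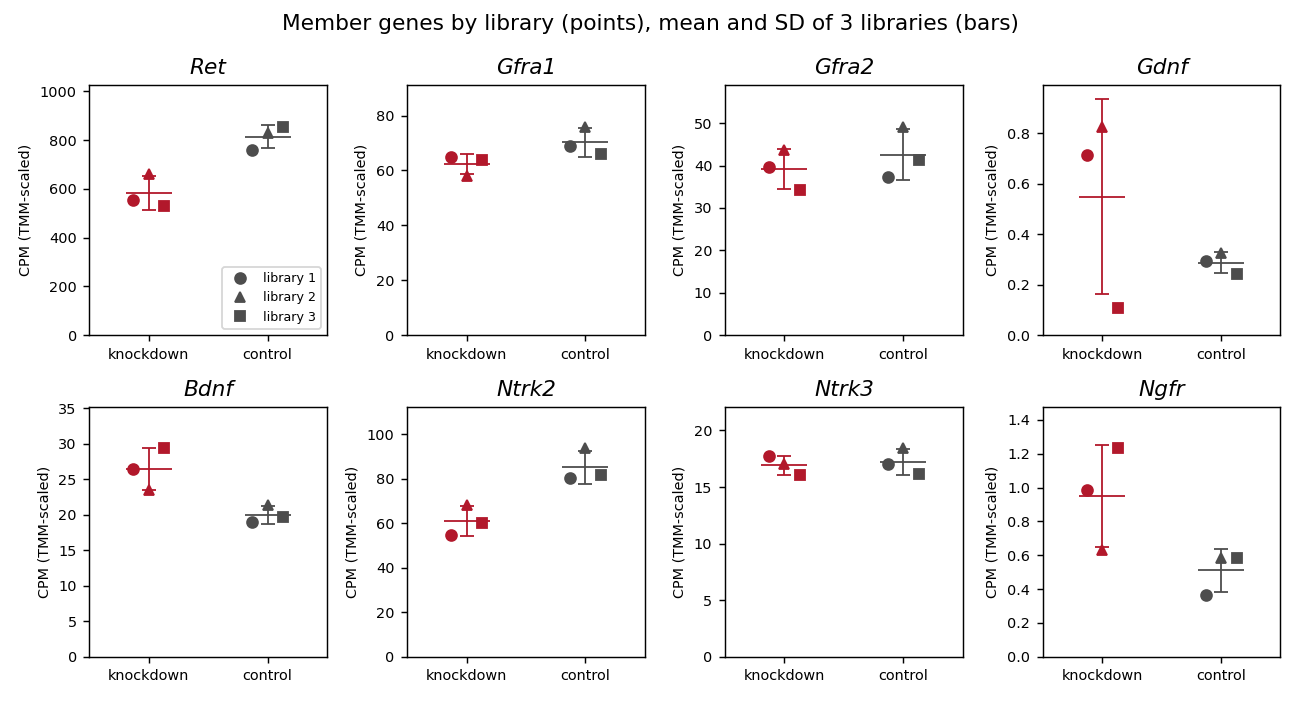
TMM-scaled CPM (vertical axis, from 0) of the 8 genes with counts in each library, Satb1 knockdown in red and scrambled control in grey, with the mean and SD of 3 libraries. Ret and Ntrk2 lie lower and Bdnf higher in all knockdown libraries, while Gdnf is high in knockdown libraries 1 and 2 and lowest of all in knockdown library 3.

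Divided by the length of all annotated exons, the levels spanned a wide range in both groups. Ret stood far above the others, at 86.0 ± 10.4 CPM per kb in the knockdown and 120 ± 7.20 CPM per kb in the control (SD, n = 3 each), which placed it at rank 537 and rank 447 of 15053 tested genes with a length. Gfra1 and Gfra2 came next and did not differ beyond their spread in either group: Gfra1 had 11.4 ± 0.684 CPM per kb in the knockdown and 12.8 ± 0.946 in the control, and Gfra2 had 11.1 ± 1.32 in the knockdown and 12 ± 1.72 in the control (SD, n = 3 each). Bdnf and Ntrk2 followed, with Bdnf at 4.25 ± 0.471 CPM per kb in the knockdown and 3.22 ± 0.202 in the control, and Ntrk2 at 3.17 ± 0.350 in the knockdown and 4.41 ± 0.381 in the control. Their ranges were apart in each group, with Bdnf above Ntrk2 in the knockdown and below it in the control. That order in the knockdown turned round with the longest transcript as the length, where Ntrk2 was at 6.99 and Bdnf at 6.20 CPM per kb, so it rests on the length used. Ntrk3 had 0.561 ± 0.0277 CPM per kb in the knockdown and 0.570 ± 0.0384 in the control. Ngfr and Gdnf were the lowest genes with counts, with means of 0.276 and 0.149 CPM per kb in the knockdown and 0.148 and 0.0782 in the control, and their ranges overlapped in the knockdown and were apart in the control.

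Ret encodes the signalling receptor of the GDNF family (chr6:118151745-118197718, minus strand, GRCm38, as are all positions below). It had 554, 661 and 529 CPM in knockdown libraries 1 to 3, against 761, 828 and 855 CPM in control libraries 1 to 3. Every knockdown library was below every control library. The mean was 581 ± 70.0 CPM in the knockdown and 815 ± 48.7 CPM in the control (SD, n = 3 each). The log2 fold change was -0.49 ± 0.10 (SE; edgeR adjusted p = 0.00446), or 1.40-fold lower. This call was made under all 12 alternatives, with log2 fold changes from -0.59 to -0.32. With between 84247 and 127547 counts per library, counting error is small beside the spread between libraries. Of 10 dopamine neuron markers 6 were lower in the same libraries and 4 did not pass, among them Nr4a2 (0.25) and Lmx1b (0.17) with values above 0. In such bulk samples fewer cells of a type and less RNA per cell cannot be told apart.

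The co-receptor genes showed smaller differences that did not pass the test. Gfra1, which encodes the GDNF co-receptor (chr19:58235604-58455909, minus strand), had 65.0, 58.0 and 63.8 CPM in knockdown libraries 1 to 3, against 68.7, 76.0 and 65.9 CPM in the control libraries. The groups did not overlap, but knockdown library 1 and control library 3 lay close together. The log2 fold change was -0.17 ± 0.10 (SE; edgeR adjusted p = 0.255) with a 95% interval from -0.39 to 0.046, and with total-count scaling it was -0.0036. Exons of Gfra1 overlap the antisense gene Gm16277 over 416 bases. Gfra2, the neurturin co-receptor gene (chr14:70890120-70979838, plus strand), had 39.7, 43.6 and 34.3 CPM in the knockdown, against 37.2, 49.2 and 41.3 CPM in the control, and the groups overlapped. Its log2 fold change was -0.12 ± 0.13 (SE; edgeR adjusted p = 0.569), with an interval from -0.40 to 0.16, and its sign turned with total-count scaling (0.049). Gfra3, the artemin co-receptor gene of chromosome 18, had 0 counts in all 6 libraries, which allows a level of up to 0.0195 CPM in a knockdown library and 0.0202 CPM in a control library, taken as 3 counts and covering counting error only.

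Gdnf, the ligand gene (chr15:7810846-7837575, plus strand), was rare and uneven among the knockdown libraries. It had 128, 127 and 17 counts in knockdown libraries 1 to 3, against 48, 50 and 36 counts in control libraries 1 to 3. In CPM this was 0.713, 0.826 and 0.107 in the knockdown and 0.295, 0.325 and 0.242 in the control. Knockdown libraries 1 and 2 were above all control libraries and knockdown library 3 was below them. Its log2 fold change of 0.93 ± 0.79 (SE; edgeR adjusted p = 0.450) had an interval from -0.78 to 2.65, and without knockdown library 3 it was 1.43 with an adjusted p = 0.206. Summed mural and meningeal markers were also lowest in knockdown library 3, at 2.96 CPM beside 10.5 and 8.93 CPM in knockdown libraries 1 and 2, and were 6.63, 4.24 and 2.61 CPM in control libraries 1 to 3, and their part in the result was not tested.

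Ntrk2, which encodes the BDNF receptor TrkB (chr13:58806569-59133970, plus strand), fell in the knockdown. It had 54.8, 68.2 and 60.3 CPM in knockdown libraries 1 to 3, against 80.2, 93.6 and 81.7 CPM in control libraries 1 to 3. Every knockdown library was below every control library, with means of 61.1 ± 6.75 CPM in the knockdown and 85.2 ± 7.36 CPM in the control (SD, n = 3 each). The log2 fold change was -0.48 ± 0.11 (SE; edgeR adjusted p = 0.00950), or 1.39-fold lower. The call was lost with total-count scaling (adjusted p = 0.0518) and without control library 2 (0.0574) or knockdown library 1 (0.0606). The gene gives a receptor with its kinase and truncated receptors without it, the second kind known from astrocytes, and the counts do not separate them. Most of the summed astrocyte level came from Slc1a2, a glutamate transporter gene, which fell to 167, 186 and 177 CPM in knockdown libraries 1 to 3, against 217, 258 and 259.7 CPM in control libraries 1 to 3 (-0.47; adjusted p = 0.00549). The other 9 astrocyte markers all had log2 fold changes above 0, of which those of S100b (0.69; adjusted p = 0.0128) and Aqp4 (0.63; adjusted p = 0.0339) passed, and the median of the list was 0.575. The part of astrocyte RNA in the Ntrk2 result was not tested.

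Ntrk3, the neurotrophin-3 receptor gene (chr7:78175959-78738012, minus strand), had 17.7, 17.0 and 16.1 CPM in knockdown libraries 1 to 3, against 17.0, 18.4 and 16.1 CPM in the control. The groups overlapped almost wholly. On the log2 scale the difference was -0.022 ± 0.12 (SE; edgeR adjusted p = 0.926), with an interval from -0.29 to 0.24, and its sign changed between settings. Ngfr, the p75 gene (chr11:95568818-95587735, minus strand), was rare, with 177, 97 and 196 counts in knockdown libraries 1 to 3, against 59, 90 and 87 counts in the control. In CPM it had 0.986, 0.631 and 1.23 in the knockdown and 0.363, 0.584 and 0.585 in the control, so that the groups did not overlap and knockdown library 2 lay close to the control. Its log2 fold change of 0.89 ± 0.54 (SE; edgeR adjusted p = 0.271) did not pass, with an interval from -0.27 to 2.06. Markers of oligodendrocyte precursors followed the same order, with sums of 46.1, 40.7 and 58.7 CPM in knockdown libraries 1 to 3, and their part in the Ngfr values was not tested.

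Bdnf, the TrkB ligand gene (chr2:109674700-109727007, plus strand), was the one member that rose. It had 26.5, 23.5 and 29.3 CPM in knockdown libraries 1 to 3, against 18.9, 21.4 and 19.7 CPM in control libraries 1 to 3. Every knockdown library was above every control library, and the gap was smallest between knockdown library 2 and control library 2. The mean was 26.4 ± 2.93 CPM in the knockdown and 19.99 ± 1.26 CPM in the control (SD, n = 3 each), with a difference on the log2 scale of 0.40 ± 0.12 (SE; edgeR adjusted p = 0.0345), or 1.32-fold higher. The direction held in all 12 alternatives, from 0.34 to 0.57, but the call did not: the adjusted p was 0.108, 0.0622 and 0.0918 without control libraries 1, 2 and 3, 0.0879 without knockdown library 1 and 0.0930 without knockdown library 3, and it was 0.0246 without knockdown library 2. Exons of Bdnf overlap the antisense gene Gm45346 over 896 bases, and unless counting used strand the reads of both are mixed. Summed markers of other neurons ranked the libraries of each group in the same order as Bdnf, at 311, 264 and 397 CPM in knockdown libraries 1 to 3, against 253, 327 and 298 CPM in control libraries 1 to 3. Unlike Bdnf these sums overlapped between the groups, and their part in the result was not tested.

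**Figure D2:**
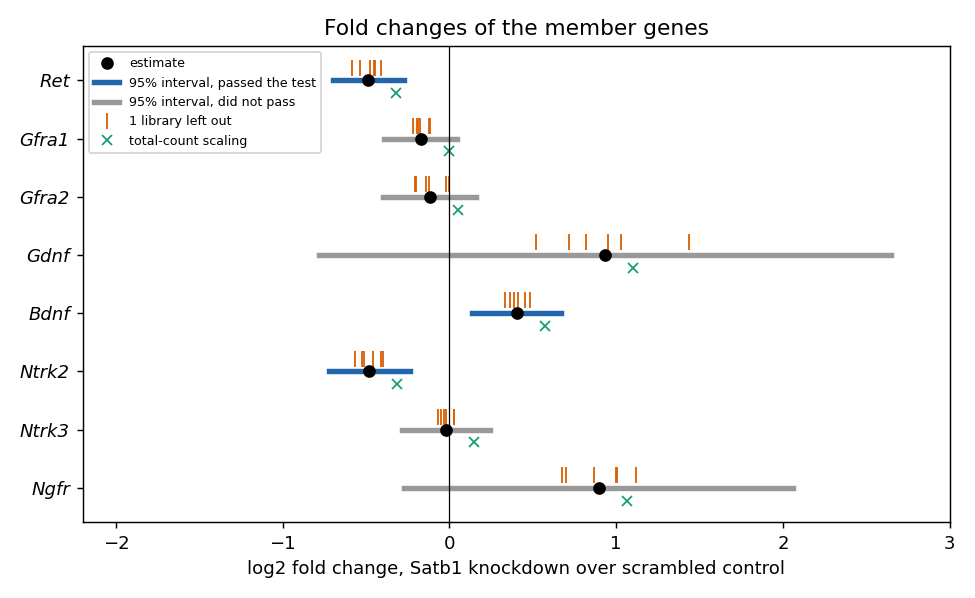
Log2 fold change of each gene, Satb1 knockdown over scrambled control (horizontal axis), with its 95% interval, the estimates with 1 library left out (orange ticks) and with total-count scaling (green crosses). Intervals of Ret, Ntrk2 and Bdnf lie on 1 side of 0, and those of Gdnf and Ngfr are the widest.

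Ratios of 2 genes within a library do not depend on the scaling between libraries. The ratio of Ret to Th counts was 0.262, 0.246 and 0.218 in knockdown libraries 1 to 3, against 0.239, 0.231 and 0.227 in control libraries 1 to 3. Th encodes tyrosine hydroxylase, which makes the dopamine precursor, and Ret thus differed from it by less than the spread between libraries (log2 of the ratio 0.05 higher in the knockdown, exact permutation p = 0.6, 2-sided). The same held for Ntrk2 over Th, at 0.0254 ± 0.000482 in the knockdown and 0.0244 ± 0.00235 in the control (SD, n = 3 each; exact permutation p = 0.8). No other dopamine neuron marker was used for ratios, and Th fell itself (log2 fold change -0.54; edgeR adjusted p = 0.00228). Foxa2 (-0.31), Ddc (-0.20), Nr4a2 (0.25) and Lmx1b (0.17) did not pass, so ratios to Th do not stand for all dopamine neuron markers. The fall of Th also raises the ratio of Bdnf to Th. Bdnf over Th was 0.0125, 0.00874 and 0.0121 in the knockdown libraries, against 0.00595, 0.00597 and 0.00523 in the control libraries, without overlap and higher by 0.94 on the log2 scale. Bdnf over Ntrk2 was 0.483, 0.344 and 0.487 in the knockdown libraries, against 0.236, 0.228 and 0.241 in the control libraries, higher by 0.88. In CPM, Bdnf was already above the control, and Th and Ntrk2 below it, in every knockdown library. Both ratios therefore had to separate, so their p-value was fixed in advance and is no further support. For both ratios the exact permutation p was 0.1, the smallest that 3 libraries against 3 allow, and 0.2 when adjusted over the 10 ratios computed. Ret over Gfra2 fell to 14.9 ± 0.787 in the knockdown, against 19.3 ± 2.16 in the control (SD, n = 3 each), with the same exact permutation p = 0.1, whereas Ret over Gfra1 overlapped between the groups, at 9.40 ± 1.73 in the knockdown and 11.6 ± 1.15 in the control (SD, n = 3 each; exact permutation p = 0.3).

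**Figure D3:**
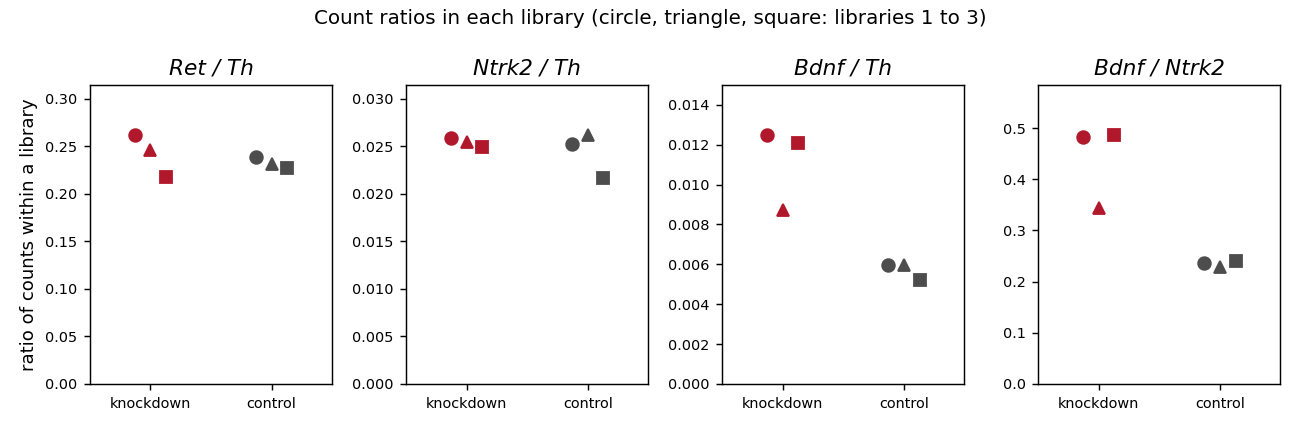
Ratio of the counts of 2 genes within each library (vertical axis, from 0), Satb1 knockdown in red and scrambled control in grey. Ret over Th and Ntrk2 over Th overlap between the groups, while Bdnf over Th and Bdnf over Ntrk2 are higher in all 3 knockdown libraries. The separation of the Bdnf ratios follows from the levels of the single genes, which do not overlap between the groups.

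The genes most like the called members were taken by Pearson correlation of log2 CPM over the 6 libraries among 11483 genes with at least 2 CPM, as a description. With that many candidates and 6 libraries in 2 groups, high values are frequent. For Ret they were Sv2c, a synaptic vesicle glycoprotein gene (r = 0.9991, log2 fold change -0.93), and Ldb1, a LIM domain-binding cofactor gene (r = 0.9990, -0.68). For Ntrk2 they were Zfp583 (r = 0.9983, -0.59) and Fntb, a farnesyltransferase subunit gene (r = 0.9951, -0.53). For Bdnf they were Hjurp, which encodes a histone chaperone of centromeres (r = 0.9959, 0.39), and Npas3, a transcription factor gene (r = 0.9949, 0.77).

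Of 129 tested genes in 10 lists of partners, signalling proteins and regulators, 11 were higher and 24 lower, or 27.1% against 21.1% of all tested genes. Their median log2 fold change was 0.03. Scaled by total counts, 26 were higher and 14 lower (16.5% and 5.8% of all genes), and the median of all tested genes moved from 0.01 to 0.18. Of 9 tested GDNF family partners 1 fell and 8 did not pass. The gene that fell was Sdc3, which encodes the GDNF-binding proteoglycan syndecan-3, at 42.4, 44.2 and 41.9 CPM in knockdown libraries 1 to 3, against 57.8, 62.7 and 59.8 CPM in the control libraries (log2 fold change -0.49 ± 0.10, SE; edgeR adjusted p = 0.00411). Its exons overlap antisense genes. Of the ligand genes, Nrtn (neurturin) had between 0.101 and 0.173 CPM in the knockdown and between 0.0605 and 0.221 CPM in the control, and Artn (artemin) between 0.371 and 0.964 CPM in the knockdown and between 0.437 and 0.486 CPM in the control. Gfra4, the persephin co-receptor gene, had between 12.6 and 14.1 CPM in the knockdown and between 12.6 and 16.3 CPM in the control.

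Of 8 tested neurotrophin partners 2 fell, and 6 did not pass. Sort1, which encodes sortilin, a partner of p75 and carrier of the BDNF precursor, had 66.2, 68.8 and 69.2 CPM in knockdown libraries 1 to 3, against 82.8, 89.2 and 88.3 CPM in the control libraries (log2 fold change -0.35; edgeR adjusted p = 0.0171). Its adjusted p was 0.170 with total-count scaling, 0.0800 without control library 2, 0.0550 without control library 3 and 0.0849 without knockdown library 1, and its exons overlap an antisense gene. Ntf3, the neurotrophin-3 gene, had between 11.5 and 14.9 CPM in the knockdown and between 11.3 and 16.3 CPM in the control. Among 12 partners of p75, Traf6 rose (0.52; adjusted p = 0.0307) and Ngfrap1 fell (-0.24; adjusted p = 0.0424), and each call was kept only without knockdown library 2 when single libraries were left out. Without any of the others the adjusted p of Traf6 was 0.0787, 0.0687 and 0.0913 for control libraries 1 to 3 and 0.132 and 0.0762 for knockdown libraries 1 and 3, and that of Ngfrap1 was 0.111, 0.107 and 0.109 and 0.125 and 0.112. In edgeR, Ngfrap1 was also lost with RLE scaling, with total-count scaling and with both other filters (adjusted p from 0.0503 to 0.530). It kept its call with DESeq2 (adjusted p = 0.031) and with the replicate block in edgeR (adjusted p = 0.00842).

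Adaptors that link RET and TRK receptors to RAS changed in both directions. Of 22 tested, 6 fell, 2 rose and 14 did not pass, or 36.4% called. Frs2, the docking protein gene of TRK and RET receptors, had 48.0, 59.0 and 41.4 CPM in knockdown libraries 1 to 3, against 103, 92.5 and 96.5 CPM in control libraries 1 to 3 (log2 fold change -0.98 ± 0.13, SE; edgeR adjusted p = 0.000503). Shc1 moved the other way, at 23.6, 20.8 and 24.2 CPM in the knockdown libraries, against 11.8, 12.1 and 10.2 CPM in the control libraries (1.01 ± 0.13; adjusted p = 0.000503). Its paralog Shc2 was at 36.8, 42.2 and 27.7 CPM in the knockdown libraries, against 66.3, 61.4 and 74.1 CPM in the control libraries (-0.92; adjusted p = 0.00117). Sos1, the exchange factor gene that loads RAS, also fell (-0.55; adjusted p = 0.00157). These 4 calls held under all 12 alternatives. With single libraries left out, 1 adaptor instead of 2 was called higher, except without control library 2. With total-count scaling 5 adaptors were lower and 5 higher, and the list's median turned from -0.09 to 0.08. Shc2 shares exon bases with an opposite-strand transcript.

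Of 21 kinases and GTPases of the RAS-ERK and PI3K-AKT routes, 7 fell, 2 rose and 12 did not pass. Map2k1, which encodes MEK1, had 187, 206 and 206 CPM in knockdown libraries 1 to 3, against 279.95, 275 and 294 CPM in control libraries 1 to 3 (log2 fold change -0.50 ± 0.09, SE; edgeR adjusted p = 0.00201), without overlap, and its call held under all 12 alternatives. Pik3ca, the catalytic subunit gene of PI3K, had 74.99, 81.8 and 73.8 CPM in the knockdown libraries, against 100.5, 103 and 107 CPM in the control libraries (-0.43; adjusted p = 0.00666). Pik3ca lost its call with total-count scaling (adjusted p = 0.0561), where 3 genes of the list were lower and 5 higher and its median turned from -0.05 to 0.12. The lower genes were 4 without control library 1, 2 or 3 or knockdown library 3, against 7 with all libraries, while the share of all genes called lower was smaller too, as given above. The list had 1 gene called higher without control library 2 or knockdown library 1, against 2 with all libraries, and those 2 lost their calls without control library 3 or knockdown library 3.

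Of 13 feedback inhibitors of these receptors, Spred2 (-0.44) and Cblb (-0.36) fell and Spry2 (0.57) and Spred1 (0.44) rose, with edgeR adjusted p = 0.0277, 0.0374, 0.0319 and 0.0397. Each call depended on single libraries. The adjusted p of Spred2 was 0.0962, 0.0777, 0.0652 and 0.0834 without control library 2, control library 3, knockdown library 2 and knockdown library 3, and that of Cblb was 0.113, 0.134, 0.145 and 0.103 without control library 2, control library 3, knockdown library 1 and knockdown library 3. Spry2 had an adjusted p of 0.117, 0.109 and 0.137 without control library 1, control library 2 and knockdown library 1. Spred1 was called only without knockdown library 2, its adjusted p being 0.0774, 0.0652, 0.133, 0.166 and 0.0560 without control libraries 1 to 3 and knockdown libraries 1 and 3. Spred2 and Cblb were also not called with total-count scaling (0.169 and 0.233).

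Etv5, an ETS factor gene known as a target of GDNF and RET signalling in mouse kidney, was the one of 9 tested response genes that fell, and 8 did not pass. It had 177, 206 and 174 CPM in knockdown libraries 1 to 3, against 335, 344 and 386 CPM in control libraries 1 to 3 (log2 fold change -0.94 ± 0.10, SE; edgeR adjusted p = 0.000245). No library of either group came near the other group, and the call held under all 12 alternatives. Vgf, a neurotrophin-induced peptide precursor gene, was at -0.04, Arc at 0.33 and Fos at 0.29 on the log2 scale.

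Of 11 regulators of Bdnf transcription 2 rose and 2 fell. Npas4, an activity-induced factor gene whose product binds Bdnf promoters, had 140, 48 and 101 counts in knockdown libraries 1 to 3, against 7, 6 and 15 counts in control libraries 1 to 3 (log2 fold change 3.23 ± 0.84, SE; edgeR adjusted p = 0.0167). It stayed under 1 CPM in every library, and its call was lost without control library 1 (adjusted p = 0.0599), control library 2 (0.0651), knockdown library 1 (0.0882) or knockdown library 3 (0.0554). Usf2 rose (0.40; adjusted p = 0.0169), a call lost without control library 1 (0.0700) or knockdown library 1 (0.0667). Mef2d fell (-0.33; adjusted p = 0.0290), but its adjusted p was 0.218 with total-count scaling, 0.0601 without control library 2, 0.126 without control library 3 and 0.130 without knockdown library 1. Creb1, which encodes CREB, was at -0.20 and did not pass (adjusted p = 0.176). Exons of Usf2 and Mef2d overlap antisense genes.

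Among 9 tested genes for processing and release of BDNF, Cadps2, which encodes a priming factor of dense-core vesicles, fell to 486, 576 and 531 CPM in knockdown libraries 1 to 3, against 780.3, 791 and 847 CPM in control libraries 1 to 3 (log2 fold change -0.60; edgeR adjusted p = 0.000791). The other 8 did not pass, among them the proprotein convertase genes Furin (0.09) and Pcsk1 (0.25). Of 15 other trophic factors and receptors, 2 rose and 1 fell. Ptn, the pleiotrophin gene, had 19.8, 18.2 and 18.4 CPM in knockdown libraries 1 to 3, against 11.9, 11.1 and 9.12 CPM in control libraries 1 to 3 (0.81; adjusted p = 0.00193). Tgfb2 rose to 4.13, 4.94 and 4.34 CPM in the knockdown libraries, against 2.23, 1.95 and 2.19 CPM in the control libraries (1.08; adjusted p = 0.00717), with exons that overlap an antisense gene. Igf1, the insulin-like growth factor gene, fell to 49.1, 61.1 and 43.0 CPM in the knockdown libraries, against 72.0, 77.4 and 76.4 CPM in the control libraries (-0.56; adjusted p = 0.00796). Ptn is also made by glia, whose markers are given above, and their part in its difference was not tested.

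**Figure D4:**
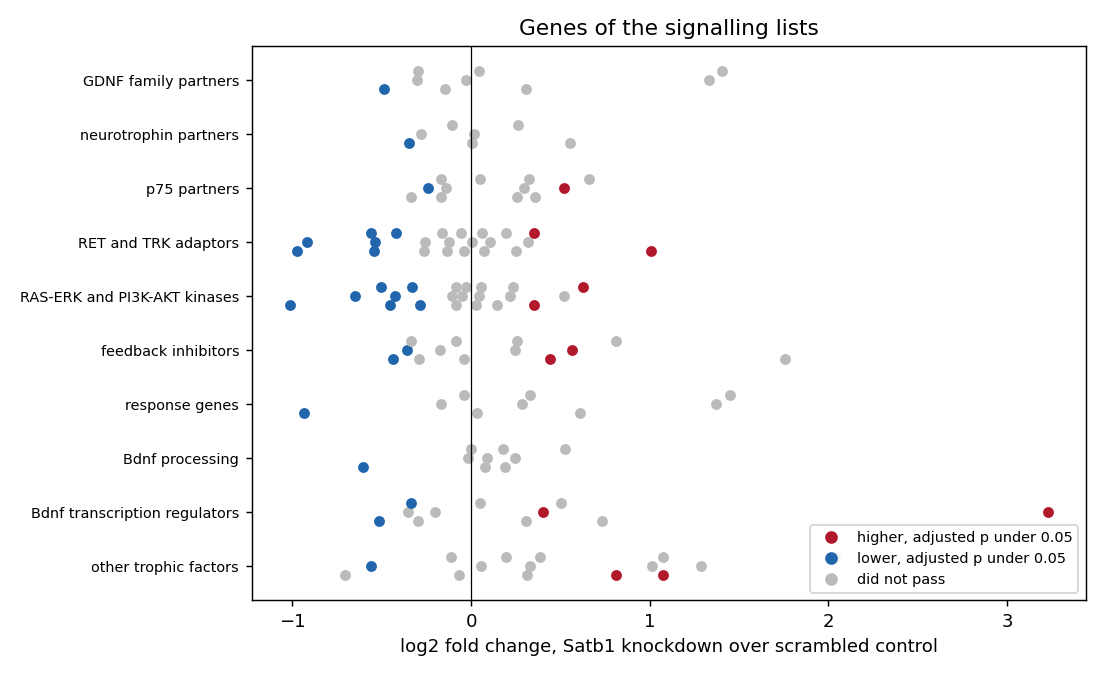
Log2 fold change of each tested gene, Satb1 knockdown over scrambled control (horizontal axis), in the 10 lists of partners, signalling proteins and regulators, of which 1 tested gene is not drawn. Called genes lie on both sides of 0 among adaptors and kinases, and the point farthest to the right is Npas4.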

How the data were processed

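The deposited values are raw counts, whole numbers for each gene in each library, as made by the authors. Per the submitters' processing notes, TopHat2 2.0.8 and build mm10 were used. How reads were counted, and whether by strand, is not given in the sources used here. Both the 9 genes and the gene lists were picked with earlier results of these data known.

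Counts were tested with edgeR 4.0.16 (R 4.3.3, limma 3.58.1), by its 2-sided quasi-likelihood F-test with TMM scaling, filterByExpr by group (minimum count 10, minimum total 15) and Benjamini-Hochberg adjustment over 16766 genes at 0.05, on all 6 libraries without covariates. The common dispersion had a square root of 0.276. Standard errors came from the F statistic and 95% intervals from its degrees of freedom. The test was checked on simulated counts. Alternatives were RLE scaling, total counts, DESeq2 1.42.0, 2 other filters, a replicate block and each library left out. Lengths, positions and exon overlaps came from GENCODE M21 (GRCm38). Replicate libraries differed by far more than sampling noise (chi-square per gene from 58.5 to 156). Named genes were Satb1, the 9 members, the called genes of each list (up to 4, by smallest p, or 2 where none was called) and the 2 genes most like each called member, without predicted models. Some genes that this rule takes are left out of the text but stay in the counts. Other genes were chosen after their values were seen. Marker lists of 8 cell classes covered dopamine neurons, other neurons, glia and vessels.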

Additional observations from a re-analysis of the deposited data

How the results depend on the processing

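Of the 8 tested members, Ret kept its call in all 12 alternatives. With total-count scaling 1 member was lower, and the log2 fold change was -0.31 for Ntrk2 (no longer called), 0.049 for Gfra2 and 0.15 for Ntrk3, whose signs turned. That scaling called 26 genes of the signalling lists higher and 14 lower, and 2770 of all genes higher and 972 lower. Genes of the lists called higher were 17 with DESeq2 and 17 with the replicate block, against 11. With a mean of at least 1 CPM required, Ntrk3 was at 0.024, and Ngfr and Gdnf were not tested. Leaving out 1 library gave from 1 to 3 members called, from 0 to 1 higher and from 1 to 2 lower, and in the lists from 21 to 34 called, from 5 to 12 higher and from 15 to 22 lower. Over all genes it gave from 1936 to 3410 called, from 804 to 1356 higher and from 1132 to 2054 lower. The log2 fold change then ran from 0.34 to 0.48 for Bdnf, from -0.56 to -0.40 for Ntrk2 and from -0.067 to 0.029 for Ntrk3. The log2 ratio of Bdnf to Ntrk2 per kb in the knockdown was 0.42 with the union of exons and -0.17 with the longest transcript, an alternative chosen after seeing the data. Of 33 other named genes, 18 kept their call in every alternative that gave a value, and none reversed. Deviations of same-numbered libraries correlated by 0.056, 0.013 and 0.11, and not every library correlated best with its own number. With 3 libraries in each group such values cannot decide whether the numbers pair the samples. The replicate block called 4713 genes against 3536. The causes of these changes were not tested. Gdnf, Ngfr and Npas4 had under 200 counts in every library, and the part of depth in their spread was not tested.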
